A study of Mus musculus with 96 samples.

Results

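The miR-30 family of the mouse was followed through the striatum of an Htt CAG knock-in series as 6 microRNA hairpins, out of 1187 in the count table. The members were chosen by their hairpin identifiers, which the tables carry without names: MI0000144 (mir-30a), MI0000145 (mir-30b), MI0000547 (mir-30c-1), MI0000548 (mir-30c-2), MI0000549 (mir-30d) and MI0000259 (mir-30e). All 6 passed the filter on low counts. Small RNA of the striatum was sequenced in 96 libraries, each from 1 mouse of the C57BL/6 strain. Heterozygous knock-in mice carried 1 wild-type Htt allele and 1 allele with a human HTT exon 1 in which the CAG repeat was 20, 50, 92 or 140 units long (Q20, Q50, Q92 and Q140). Wild-type littermates came from the Q20 line (WT_Q20) and from the Q50 line (WT_Q50), so the Q92 and Q140 mice were set against wild-type mice of other lines. Every genotype was represented by 4 males and 4 females aged 6 months and by as many aged 10 months, and mice of different ages were different animals. The Q20 and both wild-type groups together served as controls, 24 at each age.

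MicroRNAs of one family share the seed, the stretch near the 5′ end that pairs with target messenger RNAs, and can therefore act on overlapping sets of targets. The miR-30 family is abundant in many tissues, is found in neurons and glia of the brain, and is known for targets in autophagy, cell adhesion and cell fate. Each hairpin can release a 5p and a 3p product, and the 5p product carries the family seed. A count for a hairpin adds the reads of both products.

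The mature products are shown because they decide which members can be told apart by sequencing. Sequences were taken from RefSeq (GRCm38.p6), where 4 of the 6 members had an entry; the capitals mark the seed, bases 2 to 8 from the 5′ end, and mir-30b and mir-30d are given by name only.
miR-30a-5p: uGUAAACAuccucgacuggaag
miR-30e-5p: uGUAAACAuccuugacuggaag
miR-30c-5p (from both mir-30c hairpins): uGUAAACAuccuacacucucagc
miR-384-5p: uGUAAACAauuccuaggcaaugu
miR-30a-3p: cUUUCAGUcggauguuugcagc
miR-30e-3p: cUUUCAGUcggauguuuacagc
miR-30c-1-3p: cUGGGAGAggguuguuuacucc
miR-30c-2-3p: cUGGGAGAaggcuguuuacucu

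The 5p products shared 1 seed, and the 3p products fell into 2 further seed groups, one for mir-30a with mir-30e and one for both mir-30c hairpins. Among 1738 mature entries of the RefSeq table, 5 carried the family seed (0.288%), and the only one outside the listed members was miR-384-5p from the X chromosome, whose hairpin could not be matched to a count. Counted from 1 at the 5′ end, miR-30a-5p and miR-30e-5p differed by 1 substitution (C13U), and their 3p products also differed by 1 (G18A). miR-30c-5p differed from miR-30a-5p at 5 of 22 bases (C13A, G14C, G18C, G19U and A20C). The miR-30c-5p of both mir-30c hairpins was the same sequence, whereas their 3p products differed by 3 substitutions (G9A, U12C and C22U).

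The mir-30c hairpins are printed in full because a run of 28 bases, in capitals, was identical in both and held the whole of miR-30c-5p.
Mir30c-1: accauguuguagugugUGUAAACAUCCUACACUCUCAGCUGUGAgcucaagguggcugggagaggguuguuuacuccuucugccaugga
Mir30c-2: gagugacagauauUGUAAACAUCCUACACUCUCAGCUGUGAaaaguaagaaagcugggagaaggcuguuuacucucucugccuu

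Reads of miR-30c-5p therefore fit mir-30c-1 and mir-30c-2 equally well, and the division of counts between these members is uncertain. The longest run shared by mir-30a and mir-30e was 18 bases, which is shorter than either mature product. Beyond a tolerance of 0.001, the deposited counts had fractional parts in 96 of 96 libraries for mir-30a, mir-30c-1 and mir-30e, in 95 for mir-30b and mir-30c-2, and in 0 for mir-30d.

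In the mouse genome (GRCm38, the mm10 build of the study) the members lie in 3 pairs. Mir30a (chr1:23272269-23272339, plus strand) overlapped no other annotated gene, and Mir30c-2 (chr1:23291701-23291784, plus strand), 19361 bases away, lay inside an exon of the long noncoding RNA Gm27028. Mir30c-1 (chr4:120769534-120769622) and Mir30e (chr4:120772606-120772697), separated by 2983 bases on the minus strand, lay in introns of Nfyc, which encodes a subunit of the transcription factor NF-Y. Mir30b (chr15:68337415-68337510) and Mir30d (chr15:68341208-68341289) were 3697 bases apart on the minus strand, the former overlapping the end of an exon of Gm26621 and the latter inside an exon of the long noncoding RNA Gm20732 and touching Gm37296. The hairpin lengths implied by the deposited FPKM and counts were 71 bases for mir-30a, 96 for mir-30b, 89 for mir-30c-1, 84 for mir-30c-2, 82 for mir-30d and 92 for mir-30e, each equal to the annotated length of the gene of that name.

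One further row of the count table belongs beside mir-30e. Hairpin MI0021961 held exactly the same estimated count as mir-30e in all 96 libraries (largest difference 0) and the same implied length of 92 bases. The annotation places a gene, Mir30f, on the opposite strand at the coordinates of Mir30e, also 92 bases long; the tables do not pair MI0021961 with a name. The RefSeq product of Mir30f, with bases 2 to 8 in capitals, carries the letters of the family seed from its base 1.
miR-30f: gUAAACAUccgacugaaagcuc
Whether reads of this locus were divided between both rows or counted in each is not given in the sources used here, so the level of mir-30e is uncertain to that extent. Of the 474 hairpins tested, 6 (1.27%) shared all their values with another row, and mir-30e was the only member among them.

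The family took 7.31 ± 0.469% of all hairpin counts (mean ± SD, n = 96), from 6.47% in the lowest library to 8.87% in the highest. Library totals ran from 3948560 to 12530911 estimated counts, with a median of 6638753, and intervals below cover the spread between mice. By deposited FPKM, the count divided by hairpin length and library sum, the order was mir-30a, mir-30d, mir-30c-2, mir-30e, mir-30b and mir-30c-1. Each member was above the next in FPKM in 96 of 96 libraries. The mature products listed above are 22 or 23 bases long whatever the hairpin length, so FPKM shares depend partly on that length. Mean shares of library counts gave the same order. They were 3.48% for mir-30a, 1.82% for mir-30d, 1.15% for mir-30c-2, 0.520% for mir-30e, 0.265% for mir-30b and 0.0694% for mir-30c-1. mir-30a had 490079 ± 37307 FPKM (n = 96) and ranked 5th of all hairpins, and it made up 52.1 ± 2.51% of the family FPKM. mir-30d had 222527 ± 19932 FPKM, mir-30c-2 137000 ± 24059 and mir-30e 56552 ± 6987. mir-30b had 27598 ± 4236 FPKM and mir-30c-1 7794 ± 1246, or 0.831% of the family FPKM. If the row identical to mir-30e were added to it, mir-30e would exceed mir-30c-2 in FPKM in 10 of 96 libraries.

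The rest of the text uses CPM, that is counts relative to the library total after its TMM adjustment, set to a common size. A difference was called where edgeR's quasi-likelihood F test gave an adjusted p (Benjamini-Hochberg, over all 474 hairpins) under 0.05. In whole striatum, fewer cells of a type and less RNA per cell cannot be told apart, and the tissue label was not checked against marker microRNAs because their identifiers are not paired with names in the files.

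**Figure D1:**
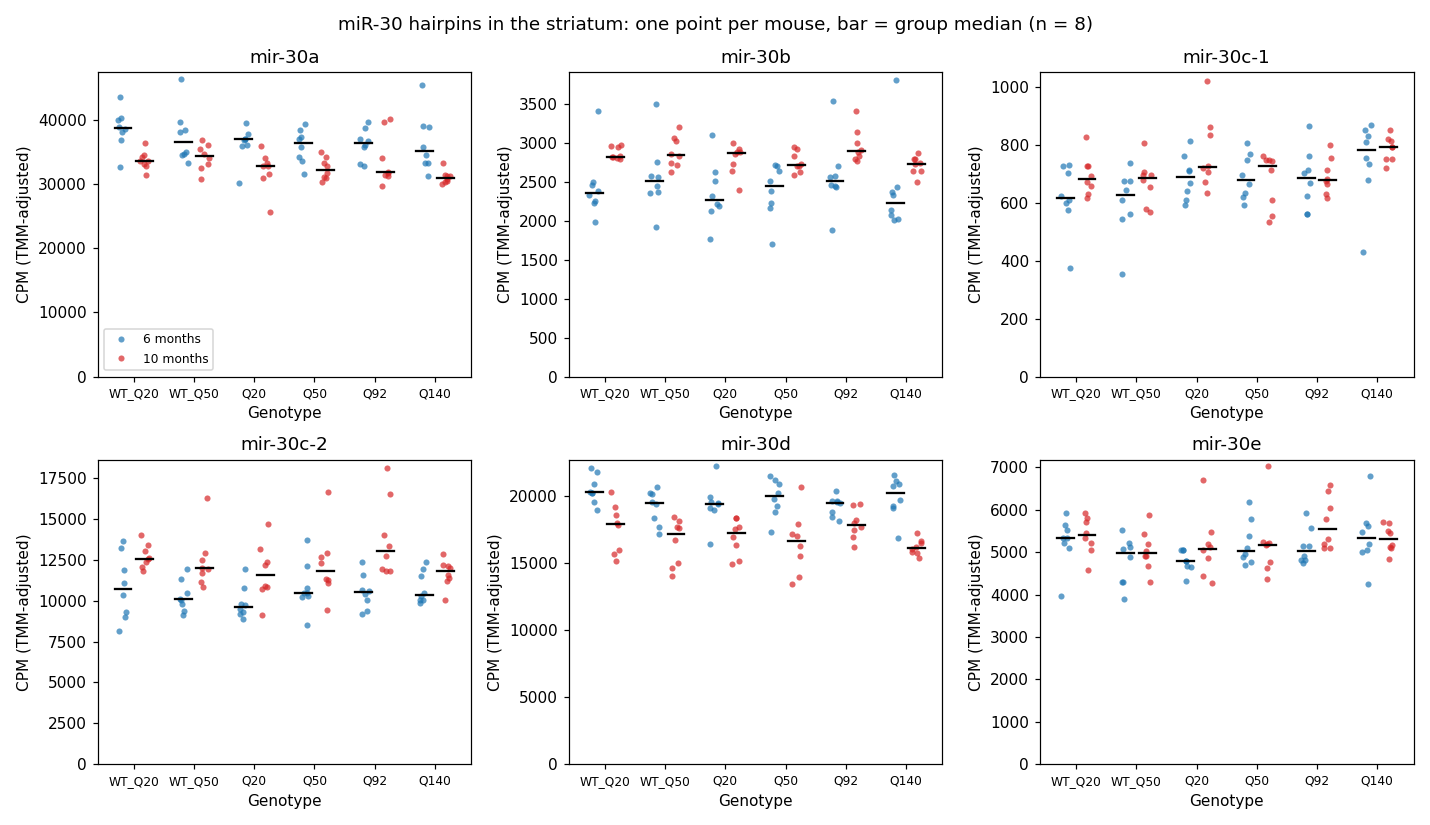
CPM of each miR-30 hairpin (y axis, from 0) in every mouse, by genotype (x axis) and age (blue, 6 months; red, 10 months), with black bars for the medians of 8 mice. mir-30a and mir-30d sit lower at 10 months and mir-30b and mir-30c-2 higher, in every genotype by median.

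Age gave the clearest differences within the family. The neighbours mir-30d and mir-30b moved in opposite directions, as did the neighbours mir-30a and mir-30c-2. The Nfyc pair did not: mir-30c-1 and mir-30e both had positive log2 changes in controls (0.14 and 0.04), neither of them called. The ages also had separate ranges of library serial numbers (below), from which age cannot be told apart. In controls, mir-30a and mir-30d were lower at 10 than at 6 months and mir-30b and mir-30c-2 were higher, while mir-30c-1 and mir-30e did not pass. Thus 4 of 6 members were called, against a background of 43.7% of all hairpins in this comparison.

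mir-30d, the second most abundant member, spanned 16389 to 22240 CPM (median 19508) in the 24 controls at 6 months and 14046 to 20304 (median 17560) at 10 months. At 10 months, 23 of 24 controls were below the 6-month mean and 9 were below every 6-month control, although the ranges overlapped. The log2 change was -0.24 ± 0.04 (SE), 0.846-fold, with an adjusted p of 1.3e-06 in edgeR. Its neighbour mir-30b moved the other way, from 1763 to 3504 CPM (median 2379) at 6 months to 2393 to 3207 (median 2847) at 10 months. All 24 of the 10-month controls were above the 6-month median, yet none was above the highest 6-month control. The log2 change of mir-30b was 0.18 ± 0.05, 1.14-fold, with an adjusted p of 0.0052 in edgeR.

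mir-30a, the most abundant member, spanned 30189 to 46456 CPM (median 37490) in controls at 6 months and 25694 to 36906 (median 33463) at 10 months. All 24 older controls were below the 6-month mean, and 1 was below the whole 6-month range. The log2 change was -0.20 ± 0.04, 0.870-fold, with an adjusted p of 4.4e-05 in edgeR. Its partner on chromosome 1, mir-30c-2, rose from 8175 to 13644 CPM (median 9944) to 9103 to 16282 (median 12263). Here 23 of 24 older controls were above the 6-month mean and 3 were above the 6-month range. The log2 change was 0.22 ± 0.05, 1.16-fold, with an adjusted p of 0.00046 in edgeR.

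The Nfyc pair differed less between the ages. mir-30c-1 spanned 354 to 812 CPM (median 642) in controls at 6 months and 569 to 1017 (median 695) at 10 months. Its log2 change was 0.14 ± 0.06 with an adjusted p of 0.058 in edgeR, from 0.036 to 0.10 when 1 library was left out. It was called by DESeq2 (adjusted p = 0.043), with RLE size factors (0.048) and with a minimum mean of 10 CPM (0.048), and was 0.08 (adjusted p = 0.21) without the 8 outlying libraries of the series, those with a connectivity Z (a standardised measure of likeness to the other libraries of that age) below -5. mir-30e spanned 3902 to 5931 CPM (median 5057) and 4278 to 6690 (median 5146). Its change of 0.04 ± 0.04 had a 95% interval from -0.05 to 0.13 and an adjusted p of 0.52 in edgeR.

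Scaling moved the size of these differences. With total counts in place of TMM factors the median of all hairpins shifted from -0.01 to 0.09, with limma on log2(FPKM + 1) to 0.11, and all 6 members were called. mir-30a and mir-30d stayed lower (-0.10 and -0.14 with total counts, -0.10 and -0.14 with limma), mir-30b (0.29 and 0.30) and mir-30c-2 (0.32 and 0.32) stayed higher, and mir-30c-1 (0.24 and 0.25) and mir-30e (0.14 and 0.14) were then called higher. Against the shifted median, mir-30e was 0.05 above it with total counts. Over all hairpins, 92 were called higher and 115 lower with TMM, 146 and 63 with total counts and 152 and 65 with limma. TMM factors of the controls averaged 0.979 ± 0.032 at 6 months and 1.03 ± 0.02 at 10 months (n = 24 each).

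The library names begin with a serial number, and its range at 6 months did not overlap that at 10 months. What the serial number stands for is not stated, and the age differences cannot be told apart from it. The names also carry a number after the letter L (3 to 6) of unstated meaning, and ages were spread unevenly over it. At 6 months, 16 of 24 controls had number 5 and 3 had number 6, while at 10 months 13 had number 4 and none had number 6. Within number 5 (5 older against 16 younger controls) the log2 CPM differences were -0.29 for mir-30a, -0.22 for mir-30d, 0.13 for mir-30b and 0.28 for mir-30c-2. Within number 4 (13 against 4) they were 0.01 for mir-30a, -0.07 for mir-30d, 0.25 for mir-30b and 0.19 for mir-30c-2. Number 3 had 6 older controls and 1 younger control, and gave -0.03, -0.15, 0.20 and 0.25 in the same order. The lower level of mir-30a was thus seen within number 5 and not within number 4. With the number as a factor, mir-30a (-0.16, adjusted p = 0.020), mir-30d (-0.18, adjusted p = 0.0029) and mir-30c-2 (0.21, adjusted p = 0.012) were still called by edgeR and mir-30b was not (0.16, adjusted p = 0.081). Whether an L number stands for the same thing at both ages is not stated, and some L numbers with the same LB number after them occurred at both. The comparisons within a number, and the fit with it as a factor, may therefore hold nothing constant between the ages. The part of the L number in the age differences was otherwise not tested.

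**Figure D2:**
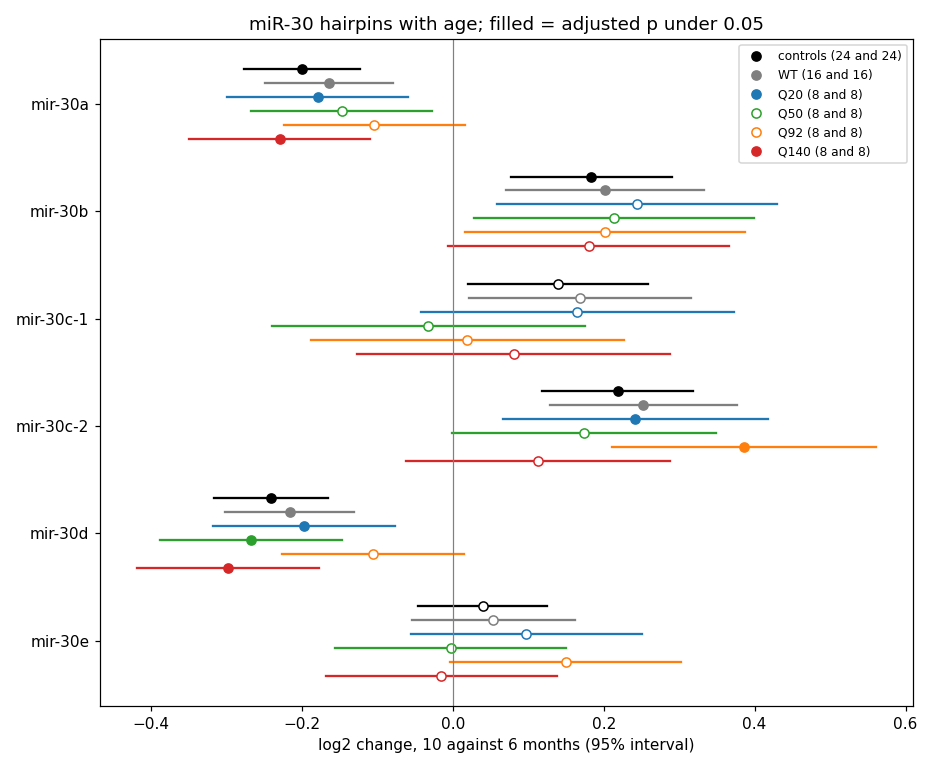
Log2 change of each miR-30 hairpin at 10 against 6 months (x axis) with its 95% interval, in the controls and in each genotype separately; filled points had an adjusted p under 0.05. mir-30a and mir-30d lie to the left of 0 and mir-30b and mir-30c-2 to the right of 0 in every genotype, while the calls vary.

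Taken genotype by genotype, the direction of these 4 members was the same in each. mir-30d had a log2 change from -0.30 ± 0.06 in Q140 to -0.11 ± 0.06 in Q92, and mir-30a from -0.23 ± 0.06 in Q140 to -0.10 ± 0.06 in Q92. mir-30c-2 had 0.39 ± 0.09 in Q92, where it was 1.31-fold higher, and 0.11 ± 0.09 in Q140. mir-30b varied little, from 0.18 ± 0.09 in Q140 to 0.24 ± 0.09 in Q20. In wild-type mice (16 at each age) 4 members were called, against 36.9% of all hairpins: mir-30a, mir-30b, mir-30c-2 and mir-30d. With 8 mice at each age, 3 were called in Q20 (mir-30a, mir-30c-2 and mir-30d; background 18.8%), 1 in Q50 (mir-30d; 14.3%), 1 in Q92 (mir-30c-2; 17.1%) and 2 in Q140 (mir-30a and mir-30d; 15%). The Q20 and wild-type mice are part of the controls above, so these are not separate evidence for them.

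The difference between genotypes in the age change was tested directly. When the age change of a knock-in line was set against that of controls in edgeR, 0 of 6 members were called for Q140 (background 2.32%), 0 for Q92 (0%) and 0 for Q50 (0.211%). Of the members 0 had an unadjusted p under 0.05, against 45, 28 and 36 of all 474 hairpins in that order. For mir-30c-2 the age change was 0.14 ± 0.10 larger in Q92 than in controls (95% interval -0.07 to 0.34) and for Q140 this difference was -0.14 ± 0.10 (-0.34 to 0.07). For mir-30d the Q140 age change differed from that of controls by -0.09 ± 0.07 (-0.23 to 0.05). The interaction of CAG length as a number with age likewise called 0 of 6 members (background 2.11%). An unadjusted p under 0.05 in edgeR was found there for 0 members and for 47 of all 474 hairpins.

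The ratio of neighbouring hairpins within a library does not depend on how libraries are scaled, and it is given here as a description without a test. In controls, mir-30d had 5.74 to 11.3 times the count of mir-30b at 6 months (median 7.99) and 4.94 to 7.24 times at 10 months (median 5.94). All 24 older controls were below the 6-month median and 9 were below the whole 6-month range. The same ratio at 10 months was 5.13 to 7.27 in Q50, 5.68 to 6.24 in Q92 and 5.48 to 6.27 in Q140, and in each line 8 of 8 older mice were below the median of the younger ones. For mir-30a to mir-30c-2 the controls spanned 2.76 to 4.92 (median 3.76) at 6 months and 2.15 to 3.40 (median 2.72) at 10 months, with 15 of 24 older mice below the younger range. In Q92 the older mice, at 2.12 to 2.70, did not overlap the younger, at 2.99 to 4.24. How often other pairs of hairpins did so was not counted, and 17.1% of all hairpins were called with age in Q92. Female replicate 1 and male replicate 4 of Q92 at 10 months were among the 8 outlying libraries. The ratio of mir-30e to mir-30c-1 in controls spanned 6.23 to 11.0 (median 7.60) at 6 months and 5.94 to 8.82 (median 7.33) at 10 months, overlapping ranges with 15 of 24 older mice below the 6-month median.

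**Figure D3:**
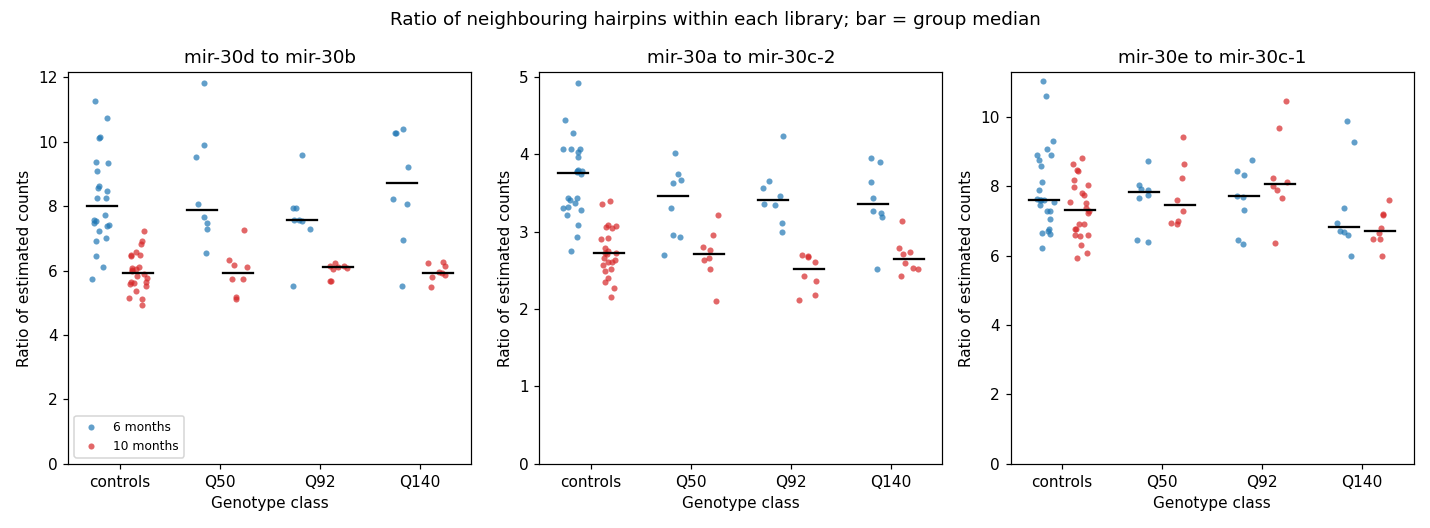
Ratio of the estimated counts of neighbouring hairpins within each library (y axis, from 0) by genotype class (x axis) and age (blue, 6 months; red, 10 months); black bars are medians of 24 controls or 8 knock-in mice. The mir-30d to mir-30b and mir-30a to mir-30c-2 ratios are lower at 10 months in every class, and the mir-30e to mir-30c-1 ratio overlaps throughout.

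CAG length was tested next. Treated as a number over 48 mice at each age, CAG length was associated in edgeR with 0 of 6 members at 6 months (background 8.02%). At 10 months it was associated with 0 (15.8%), and DESeq2 and limma also gave 0 at each age. An unadjusted p under 0.05 in edgeR was found for 1 member at 6 months and 0 at 10 months, against 100 and 130 of all 474 hairpins. When both ages were combined, 1 of 6 members was called, against 21.5% of all hairpins, a count that does not set the family apart from the background. This member was mir-30c-1, the least abundant, with a log2 slope of 0.13 ± 0.05 per 100 repeats and an adjusted p of 0.025 in edgeR. Without the Q140 libraries its slope was 0.07 (adjusted p = 0.86 in edgeR), and that at 10 months turned to -0.03. In that setting 0 of 474 hairpins were called at 6 months, at 10 months or combined, so the lost call is not particular to mir-30c-1. mir-30a (-0.05 ± 0.03) and mir-30e (0.07 ± 0.03) each had an adjusted p of 0.13 in edgeR, and mir-30b, mir-30c-2 and mir-30d had slopes between -0.02 and 0.02.

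mir-30c-1 was also the member called in Q140 against controls. For this hairpin the 8 Q140 mice at 6 months spanned 430 to 867 CPM (median 781) and the 24 controls 354 to 812 (median 642). At 10 months the Q140 mice spanned 720 to 849 CPM (median 791) and the controls 569 to 1017 (median 695). The Q140 mice were above the control mean in 7 of 8 cases at 6 months and in 8 of 8 at 10 months, and 3 of 8 were above every control at 6 months and 0 at 10 months. The log2 differences of 0.22 ± 0.11 at 6 months and 0.16 ± 0.07 at 10 months were not called (adjusted p = 0.21 and 0.12 in edgeR), and the combined difference of 0.19 ± 0.06, 1.14-fold, was (adjusted p = 0.019). In Q140, 0 of 6 members were thus called at 6 months (background 7.81%), 0 at 10 months (16.9%) and 1 over both ages (25.1%). An unadjusted p under 0.05 in edgeR was found for 1 member at 6 months and 2 at 10 months, against 108 and 143 of all 474 hairpins. At 10 months DESeq2 called 0 members (90 of 474 hairpins) and limma 1 (83 of 474), which was mir-30a.

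The call of mir-30c-1 in Q140 over both ages was kept under some settings and lost under others. In edgeR it was kept without the 8 outlying libraries (0.22, adjusted p = 0.00023) and against only wild-type controls (0.25, adjusted p = 0.00084). It was also kept with DESeq2, RLE size factors, no filter, a minimum mean of 10 CPM and a replicate block, and when any 1 library was left out. Set against the 8 Q20 mice of each age alone, the Q140 difference was 0.08 ± 0.07 (adjusted p = 0.51), and with the number after the letter L as a factor it was 0.14 ± 0.07 (adjusted p = 0.094). It was 0.15 with total counts (adjusted p = 0.070) and with limma on log2(FPKM + 1) (adjusted p = 0.078). The median of all hairpins was -0.04 in each of these alternatives and -0.01 with TMM. The Q140 mice at 10 months had number 4 in 7 of 8 cases; within it, mir-30c-1 differed from 13 controls by 0.14 on the log2 scale, and the remaining mouse differed by 0.04 from 5 controls of number 5. At 6 months the differences were 0.10 within number 5 (3 Q140 mice and 16 controls) and 0.27 within number 6 (3 and 3), and those of single Q140 mice were -0.12 within number 3 (1 control) and 0.39 within number 4 (4 controls). With mir-30c-1 and mir-30c-2 summed, the combined Q140 difference was 0.00 ± 0.05 and the slope on CAG length 0.02 ± 0.04; mir-30c-2 makes up most of this sum, which therefore follows mir-30c-2 and is no test of mir-30c-1.

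The most abundant member, mir-30a, was not called in Q140 by edgeR with all controls. At 10 months the Q140 mice spanned 30035 to 33312 CPM (median 30982), against 25694 to 36906 (median 33463) in controls. All 8 were below the control mean, as were 7 of 8 for mir-30b, mir-30c-2 and mir-30d, and all were within the control range. None of these members was called by edgeR there, and how many other hairpins did the same was not counted. The log2 difference of mir-30a was -0.08 ± 0.04 at 10 months (adjusted p = 0.16 in edgeR). Over both ages it was -0.07 ± 0.04 (adjusted p = 0.11 in edgeR, and 0.036 without Q140 6 months male replicate 1). Against only Q20 controls the combined difference was -0.01 (adjusted p = 0.84), and that at 6 months was 0.01. It was called over both ages against only wild-type controls (-0.09, adjusted p = 0.034), without the 8 outlying libraries (-0.08, adjusted p = 0.033), with total counts (-0.11, adjusted p = 0.0045) and with limma on FPKM (-0.11, adjusted p = 0.0032), where the median of all hairpins moved from -0.01 to -0.04 in each of these last alternatives (total counts and limma).

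mir-30d, mir-30b, mir-30c-2 and mir-30e did not pass in Q140 at either age or combined. Over both ages their log2 differences were -0.03 ± 0.04 for mir-30d (95% interval -0.10 to 0.05), -0.05 ± 0.05 for mir-30b (-0.16 to 0.05), 0.00 ± 0.05 for mir-30c-2 (-0.10 to 0.10) and 0.08 ± 0.05 for mir-30e (-0.01 to 0.18). Against only Q20 controls they were -0.003 for mir-30d, 0.0006 for mir-30b, 0.07 for mir-30c-2 and 0.12 for mir-30e, and none was called. As a share of all counts, the family held 6.90 ± 0.098% in Q140 at 10 months (n = 8), from 6.70 to 7.05%, against 7.34 ± 0.450% in controls (n = 24), from 6.50 to 8.53%. The other means at that age were 7.48% in WT_Q20, 7.36% in WT_Q50, 7.18% in Q20, 7.24% in Q50 and 7.63% in Q92. At 6 months the share was 7.11% in Q140 and 7.39% in controls. These shares were not tested.

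**Figure D4:**
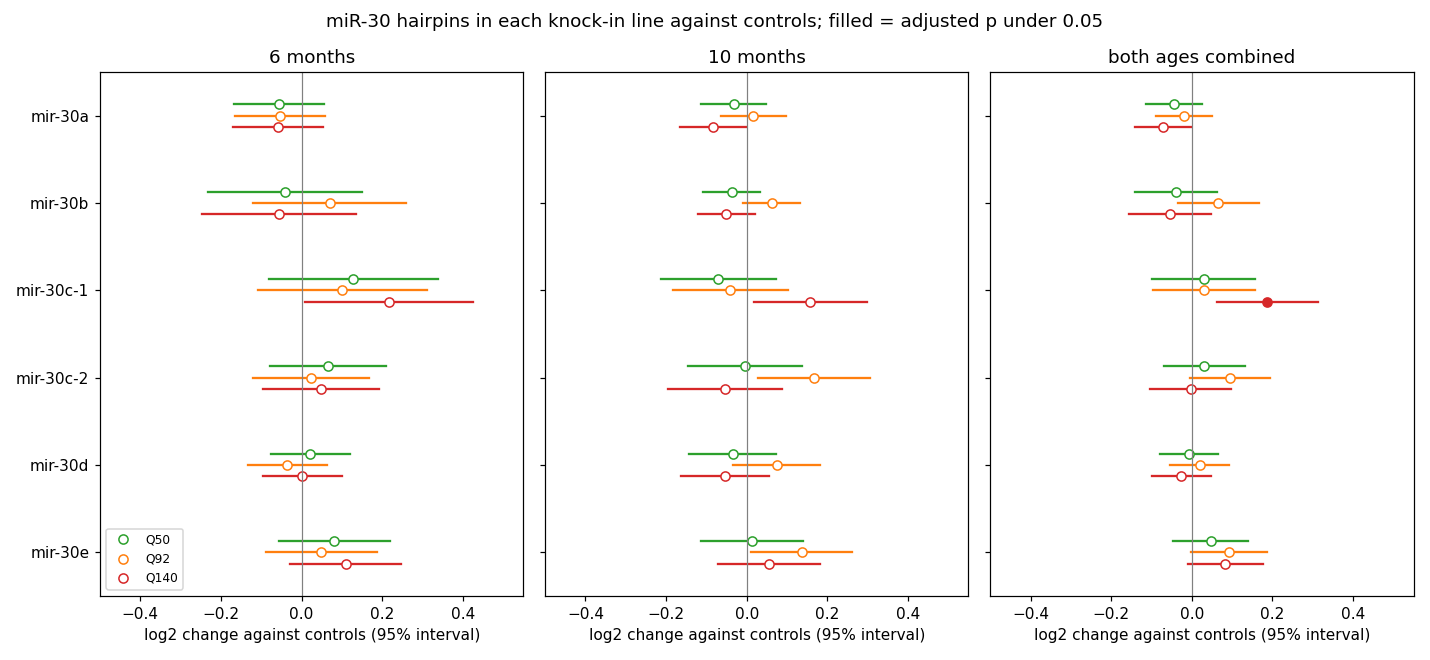
Log2 difference of each miR-30 hairpin between a knock-in line and the 24 controls of the same age (x axis) with its 95% interval, at 6 months, at 10 months and with both ages combined; filled points had an adjusted p under 0.05. The only filled point is mir-30c-1 in Q140 with both ages combined.

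Q92 and Q50 gave no called member, and they shared their controls with Q140. In Q92, 0 of 6 members were called at 6 months (background 0%), at 10 months (1.69%) or over both ages (0%) in edgeR, DESeq2 or limma. At 10 months 2 members, and 52 of all 474 hairpins, had an unadjusted p under 0.05 in edgeR. The members were mir-30c-2 (0.17 ± 0.07, adjusted p = 0.36 in edgeR) and mir-30e (0.14 ± 0.06, adjusted p = 0.39). The Q92 mice then spanned 11806 to 18126 CPM of mir-30c-2 (median 13020), and 2 of 8 were above every control. In Q50, 0 of 6 were called at 6 months (background 0%), at 10 months (0.211%) or over both ages (0%) by any of the 3 tools. An unadjusted p under 0.05 in edgeR was found for 0 members, against 43, 23 and 44 of all 474 hairpins in that order.

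Within the controls no member was called by genotype. Q20 mice against their 8 wild-type littermates of each age gave 0 of 6 called members at 6 months (background 0%), at 10 months (0%) and over both ages (1.48%) in edgeR. Over both ages 49 of all 474 hairpins, and 1 member, had an unadjusted p under 0.05. This member was mir-30c-1, which had a log2 difference of 0.16 ± 0.08 in Q20 (adjusted p = 0.36 in edgeR), close in size to that of Q140 against all controls. The wild-type mice of the Q50 line against those of the Q20 line also gave 0 called members at 6 months (0%), at 10 months (0%) and combined (0%). Of the members 0 had an unadjusted p under 0.05 in edgeR, against 36, 11 and 36 of all 474 hairpins in that order. Sex in the 48 controls called 0 of 6 members (background 0.211%), and the interaction of CAG length with sex 0 of 6 (0.211%). Each had 0 members at an unadjusted p under 0.05 in edgeR, against 48 and 8 of all 474 hairpins. The log2 difference of females from males ran from -0.07 ± 0.05 for mir-30c-2 to 0.05 ± 0.06 for mir-30c-1.

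Members did not vary as one block from mouse to mouse. After the mean of each genotype, age and sex group was removed, log2 CPM of mir-30c-1 and mir-30e, the Nfyc pair, had a Pearson correlation of 0.67 over the 96 libraries. It was 0.28 for mir-30a and mir-30c-2 and 0.09 for mir-30b and mir-30d, the members of the other pairs. Across pairs, mir-30d and mir-30e reached 0.62, mir-30c-2 and mir-30e 0.54 and mir-30b and mir-30c-2 0.50, and mir-30b ran against mir-30c-1 at -0.45. These values are descriptions, since the members share libraries, depth and scaling.

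For each member the hairpins outside the family with the most similar residual pattern over the same 96 libraries were given by identifier. mir-30b was closest to MI0000172 (0.84) and MI0022895 (0.83), and mir-30c-1 to MI0000607 (0.80) and MI0000228 (0.79). mir-30e was matched by its identical row MI0021961 (a correlation of 1) and then by MI0000228 (0.74), and mir-30d by MI0004665 (0.68) and again MI0021961 (0.62). mir-30a (MI0000794 at 0.61 and MI0004638 at 0.58) and mir-30c-2 (MI0000823 at 0.57 and MI0000719 at 0.55) had less similar neighbours. The names of these hairpins were not used here.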

How the data were processed

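The deposited tables held estimated counts and FPKM per microRNA hairpin for 96 striatum libraries. Per the study's methods, the authors sequenced strand-specific single-end libraries, aligned clipped reads to mm10 with STAR and counted with HTSeq, and the submitters' notes name CASAVA 1.8.2. Deposited estimated counts were not all whole numbers, for reasons not given in the sources used here, and were rounded. The authors made FPKM by dividing these counts by hairpin length and library sum.

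Counts were tested in edgeR 4.0.16 (R 4.3.3) by quasi-likelihood F tests with TMM scaling, robust dispersions and sex as a covariate, on the 474 hairpins kept by filterByExpr (minimum count 10). Adjusted p-values (Benjamini-Hochberg) cover all 474. CAG length entered per 100 repeats, with 7 for wild type, and both ages were combined by averaging estimates and by Stouffer's method for p. DESeq2 1.42.0 and limma 3.58.1 were alternatives. The fit of CAG length at 10 months was checked on simulated counts, and the other fits were not. Genotype, CAG length of the knock-in lines, sex and age were taken from the labels. The knock-in was not checked, since Htt itself is not in small RNA tables. Named hairpins were the 6 members, their 2 closest outside hairpins each, and any with the same seed. Members and lists were chosen with earlier results of these data known; comparison families and cell type markers were not used because identifiers carry no names. P-values test differences or slopes against the spread between mice.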

Additional observations from a re-analysis of the deposited data

Results flagged for a closer look

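Among 72 combinations of member, genotype and age with 8 mice each, 9 had a mouse set apart from the rest of its group by more than Dixon's 95% limit, where chance would flag about 1 in 20. The values are CPM, each beside the nearest mouse of its group.

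A pair of libraries appeared more than once. The mouse Q140 6 months male replicate 1 had 3811 for mir-30b (nearest 2432) and 430 for mir-30c-1 (nearest 677), and WT_Q20 6 months male replicate 4 had 373 for mir-30c-1 (nearest 574) and 3960 for mir-30e (nearest 5099). Both are among the 8 libraries whose connectivity to the other libraries of their age fell below -5 in standardized units.

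The other flagged mice were Q20 6 months male replicate 3 with 30189 for mir-30a (nearest 35999), Q140 10 months male replicate 4 with 33312 for mir-30a (nearest 31387), and WT_Q20 6 months male replicate 3 with 3413 for mir-30b (nearest 2507). WT_Q50 10 months male replicate 1 had 16282 for mir-30c-2 (nearest 12890), and Q50 10 months male replicate 1 had 7022 for mir-30e (nearest 5243). Why these mice differed was not tested.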

How the results depend on the processing

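The number of members called with CAG length over both ages was 1. It became 0 with no filter (102 of 1005 hairpins called), with the L number as a factor (109 of 474) and without the Q140 libraries (0 of 474). It was also 0 without the 6-month libraries of L number 6 (84 of 474), a setting chosen after seeing the data. For Q140 against controls over both ages the number was 1. It became 0 with the L number as a factor (120 of 474 hairpins called), with only Q20 controls (85) and without those L number 6 libraries (104). It became 2 without the 8 outlying libraries (141) or with only wild-type controls (121). At 6 months, 1 member was called without the outlying libraries, for CAG length (63 of 474 hairpins called) and for Q140 (74), in place of 0. At 10 months, 1 was called in Q140 with limma (83 of 474 hairpins called), with total counts only (87) and with only wild-type controls (94), in place of 0. With total counts and with limma, the 1 member called over both ages was mir-30a and not mir-30c-1, whose slope of 0.11 had adjusted p-values of 0.080 and 0.086. Apart from fewer samples or more hairpins tested, the cause was not tested.

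Leaving out 1 library in turn gave 1 to 2 members for CAG length and for Q140 over both ages, 0 to 1 for each at 6 months, 0 for CAG length and 0 to 1 for Q140 at 10 months, 0 for Q92 and Q50, and 4 to 5 with age in controls. Without Q140 6 months male replicate 1, mir-30c-1 was called at 6 months (slope 0.21, Q140 difference 0.30) and mir-30a over both ages (-0.06 and -0.09). Without Q20 10 months male replicate 3, mir-30c-1 was called in Q140 at 10 months (0.19). With age, mir-30c-1 was called (0.15 to 0.17) without any 1 of 11 controls: at 10 months Q20 female replicates 2 and 3, WT_Q20 female replicates 3 and 4 and WT_Q50 male replicate 4; at 6 months Q20 male replicate 2, WT_Q20 female replicates 1 and 3, WT_Q20 male replicate 2 and WT_Q50 female replicates 1 and 3.

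Same-numbered mice of the same sex in different genotypes had a mean residual correlation of -0.05 (from -0.56 to 0.61) at 6 months. At 10 months it was -0.01 (from -0.48 to 0.46). Mice with different numbers were not compared, so whether replicate numbers pair the mice was not otherwise tested. With a replicate block, 1 member was called with CAG length, 1 in Q140 and 4 with age, and 0 in Q92 and Q50, so no count of member calls moved. Of all 474 hairpins it called 100 with CAG length and 114 in Q140 over both ages, and 198 with age.

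Changes below about 0.1 on the log2 scale lie within the intervals of most members, reads of miR-30c-5p fit both mir-30c hairpins, and mir-30e cannot be separated from its identical row in these counts.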
